A study of Arabidopsis thaliana with 4 samples.

Results

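Of 33565 genes measured in roots of Arabidopsis thaliana, 70 (0.209%) were high only when jasmonic acid (JA) and cytokinin were given together. They were chosen from the values themselves. After 0.1 was added to each value, a gene had to reach at least 3 times its level in each of the JA, cytokinin and control roots, its level with JA alone had to stay under 3 times that of the control, and its deposited value with JA/cytokinin had to be at least 5 FPKM. FPKM is the number of sequenced fragments of a gene, divided by a length taken from its exons and by the library's mapped fragments. In the estimates made here, that length is the exon length less a fragment length of 160 bases. The height of these genes with JA/cytokinin is therefore how they were found and not a finding, and it is given here as a description. Among the 70 were 51 protein-coding genes, 2 pseudogenes, 1 other non-coding RNA and 3 loci that the TAIR10.1 gene table does not hold, whose kind is therefore not known here. The other 13 were annotated as small RNA or ribosomal RNA loci, namely 6 small nucleolar RNAs (snoRNAs), 5 microRNA precursors and 2 ribosomal RNA (rRNA) loci, and these are described apart.

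All plants were Col-0, the wild-type accession, and all libraries came from roots of 7-day-old seedlings grown on solid medium. JA/cytokinin roots were grown with 10 µM methyl jasmonate (MeJA) and 50 nM BAP, a synthetic cytokinin. JA roots had the same dose of MeJA alone, cytokinin roots the same dose of BAP alone, and control roots neither hormone. Each condition had 1 library, so no value has a replicate check, no test between conditions was possible, and the intervals given below cover counting error only.

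JA is a lipid-derived hormone of wounding and defence, whose perception leads to the breakdown of the JAZ repressors and so frees MYC-type transcription factors. Cytokinin is perceived by histidine kinases and acts through a phosphorelay to the response regulators, of which the type-A members are themselves rapidly induced. In roots both hormones restrain growth, and cytokinin is known to restrain the specification of protoxylem.

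Between 98605532 and 115141812 reads were sequenced per library, most in the JA/cytokinin library. All 18 measured genes of JA repression and JA synthesis were at least 2-fold higher in JA than in control roots, beside 8.45% of the 20442 genes with at least 1 FPKM in a library. Of 14 type-A response regulators and cytokinin oxidases, 5 were at least 2-fold higher in cytokinin than in control roots, beside 3.88%. All 10 root tissue markers had at least 1 FPKM in every library, with summed levels of 292 FPKM with JA/cytokinin, 242 FPKM with JA, 550 FPKM with cytokinin and 537 FPKM in the control. The 15 photosynthesis genes summed to 37.4 FPKM with JA/cytokinin, 953 FPKM with JA, 59.8 FPKM with cytokinin and 6500 FPKM in the control, and 3 of them were listed at 0 with cytokinin. Of 11 shoot and leaf markers, 5 had at least 1 FPKM in the control, beside 1 in each hormone library. In the control 0 of these markers were listed at 0 FPKM, against 5 with JA/cytokinin, 7 with JA and 7 with cytokinin. The part of these differences in the values below, also in genes seen mainly in the control, was not tested. Small RNA and rRNA loci held 5.56% of all FPKM with JA/cytokinin, 1.93% with JA, 0.827% with cytokinin and 1.04% in the control. In whole roots, a gene expressed in fewer cells and a gene with less RNA per cell cannot be told apart.

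Of the 51 protein-coding genes, 48 had values above 0 in all 4 libraries. Their median level was 16.1 FPKM with JA/cytokinin, 2.49 FPKM with JA, 2.93 FPKM with cytokinin and 1.89 FPKM in the control. The median ratio of JA/cytokinin was 4.85 to JA, 4.71 to cytokinin and 8.26 to the control, with 0.1 added to each value as in every ratio below. Over all 57 loci not annotated as small RNA or rRNA, including those listed at 0 and the 3 of unknown kind, the median log2 ratios were 2.44 to JA, 2.37 to cytokinin and 3.13 to the control. Most genes lay not far above the 3-fold limit, since the ratio to the highest of the other 3 libraries had a median of 3.92, was under 4 in 25 of the 48 and reached 10 in only 3 (AT4G14060, AT2G30540 and AT4G15680). Among all 15003 genes of at least 5 FPKM with JA/cytokinin, 2.34% stood 3-fold above JA, 3.44% above cytokinin and 4.53% above the control, and the rule drew on these same contrasts. AT1G79520, AT4G10270, AT5G53740 and AT2G31141 overlap other annotated loci, so their values may hold reads of those. The 4 values of each gene are drawn in the plot of protein-coding genes by library.

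**Figure D1:**
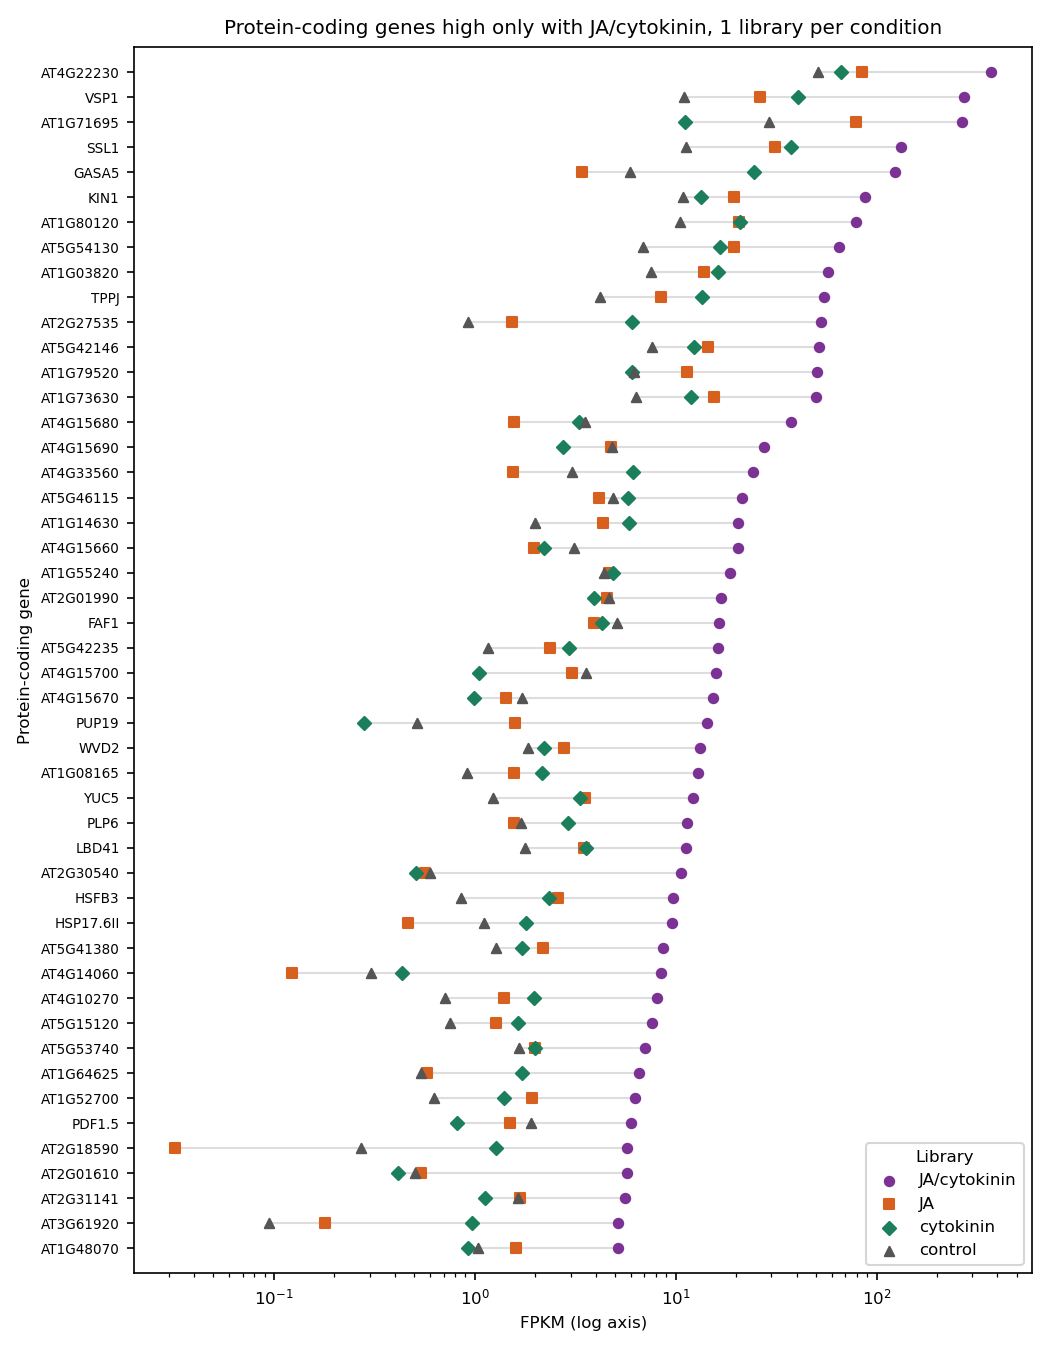
FPKM on a log axis of the 48 protein-coding genes above 0 in all libraries, ordered by their level with JA/cytokinin, with 1 symbol per library (circle, JA/cytokinin; square, JA; diamond, cytokinin; triangle, control). The circles stand apart on the right by the rule, from 5.18 FPKM for AT1G48070 to 372 FPKM for AT4G22230, while the order of the other 3 symbols differs from gene to gene.

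What each hormone did alone differed among the genes, although the rule limited how far. The highest of the other 3 libraries was cytokinin in 23 genes, JA in 16 and the control in 9. With JA alone, 10 of the 48 were at least 2-fold above the control (8.45% of all genes tested), 3 were at least 2-fold below it (9.77%) and 35 lay between. With cytokinin alone, 18 were at least 2-fold above the control (3.88%), 3 at least 2-fold below it (9%) and 27 between. Of the 48 genes, 26 were above the control with each of the hormones alone, 6 with JA but not cytokinin, 7 with cytokinin but not JA, and 9 with neither. The 7 genes that were at least 2-fold above the control with JA and also with cytokinin were VSP1, SSL1, AT5G54130, AT1G14630, YUC5, HSFB3 and AT1G52700. Both single-hormone ratios have the control library in common and are read gene by gene only.

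**Figure D2:**
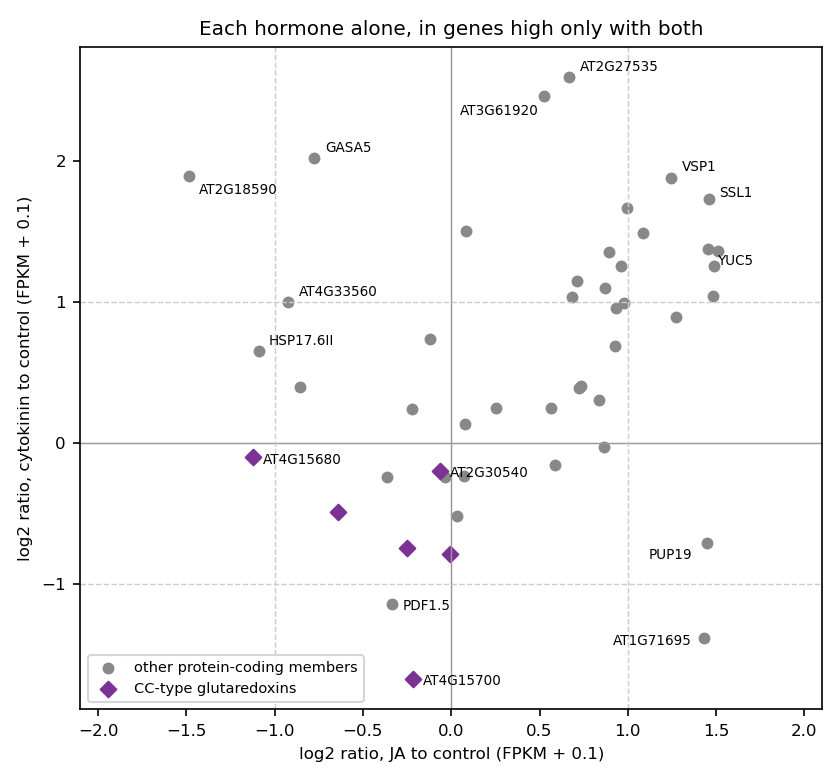
The log2 ratio of JA to control (x axis) and of cytokinin to control (y axis) of the 48 protein-coding genes, with 0.1 FPKM added to each value and dashed lines at 2-fold. The 6 CC-type glutaredoxins (diamonds) sit at or below the control on both axes, VSP1 and SSL1 lie beyond 2-fold on both, and GASA5 and AT2G18590 are above the control with cytokinin and below it with JA.

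The clearest group by position and family was the CC-type glutaredoxins, small thiol oxidoreductases found only in plants, some of which bind TGA transcription factors. The annotation gives 21 genes of this family, and 6 of them were high only with both hormones (0.209% of all genes). These were AT2G30540 on chromosome 2 and all of a row of 5 neighbouring genes on chromosome 4, AT4G15660, AT4G15670, AT4G15680, AT4G15690 and AT4G15700, which lie on the same strand within 12554 bases (chr4:8925571-8938124, TAIR10.1) with 1803 to 2520 bases between neighbours. No other protein-coding members were neighbours. Each of the 5 has a coding sequence of 309 bases, and any pair of them is identical at 88.3% to 93.2% of aligned bases, against 59.0% to 61.7% for AT2G30540 with the 5. The longest identical run between the transcripts of a pair was 38 to 71 bases, shorter than a read of 101 bases, and no stretch of a read's length in these genes occurs elsewhere in the genome. How reads that aligned with mismatches were assigned is not given in the sources used here.

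AT4G15680 had 37.4 FPKM with JA/cytokinin, 1.57 FPKM with JA, 3.31 FPKM with cytokinin and 3.55 FPKM in the control. AT4G15690 had 27.4 FPKM with JA/cytokinin, 4.784 FPKM with JA, 2.74 FPKM with cytokinin and 4.798 FPKM in the control. AT4G15660 had 20.5 FPKM with JA/cytokinin, 1.97 FPKM with JA, 2.204 FPKM with cytokinin and 3.13 FPKM in the control. In all of these the roots given either hormone alone were at or under the control level, and JA/cytokinin roots alone were high. AT4G15700 had 16.0 FPKM with JA/cytokinin, 3.06 FPKM with JA, 1.05 FPKM with cytokinin and 3.57 FPKM in the control. AT4G15670 had 15.4 FPKM with JA/cytokinin, 1.44 FPKM with JA, 0.991 FPKM with cytokinin and 1.73 FPKM in the control. AT2G30540, on another chromosome, had 10.6 FPKM with JA/cytokinin (95% interval 9.60 to 11.7), 0.569 FPKM with JA, 0.512 FPKM with cytokinin and 0.600 FPKM in the control. Its 3 low libraries overlapped in their counting intervals, and its ratio of 15.3 to the highest of them was exceeded only by that of AT4G14060 among the 48. Summed over the 5 neighbours, the level was 117 FPKM with JA/cytokinin, 12.8 FPKM with JA, 10.3 FPKM with cytokinin and 16.8 FPKM in the control. This sum with JA/cytokinin was 9.10 times that with JA, 11.3 times that with cytokinin and 6.95 times that of the control, while JA alone gave 0.764 and cytokinin alone 0.614 of the control. Of the genes on either side of the row, AT4G15650 had at most 0.0849 FPKM in any library and AT4G15710 had 0.224 FPKM with JA/cytokinin and its highest value, 1.11 FPKM, in the control. The values of AT4G15650 are too close to the depth limit to be compared.

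None of the other 15 family genes met the rule. GRXS13, the most abundant, had 57.4 FPKM with JA/cytokinin, 78.4 FPKM with JA, 34.4 FPKM with cytokinin and 125 FPKM in the control. GRX480, a salicylic acid-inducible partner of TGA factors, had 56.6 FPKM with JA/cytokinin, 74.3 FPKM with JA, 5.41 FPKM with cytokinin and 6.30 FPKM in the control, and so was high with JA whether or not cytokinin was given. ROXY2, which acts in anther development, had 13.3 FPKM with JA/cytokinin, 3.63 FPKM with JA, 7.44 FPKM with cytokinin and 4.81 FPKM in the control, and was thus also highest with both hormones but under 3-fold above cytokinin alone. AT5G18600 was listed at 0 in the 3 hormone libraries and had 7.63 FPKM in the control. Of the 16 family genes with at least 1 FPKM in a library, 9 were at least 2-fold higher with JA/cytokinin than with JA and 0 lower (6.58% and 8.55% of all genes). Against cytokinin 9 were higher and 1 lower (8.75% and 6.23%), and against the control 8 were higher and 3 lower (9.81% and 10.9%). The 6 chosen genes are by the rule among the higher ones in each comparison, so these counts are partly fixed in advance.

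**Figure D3:**
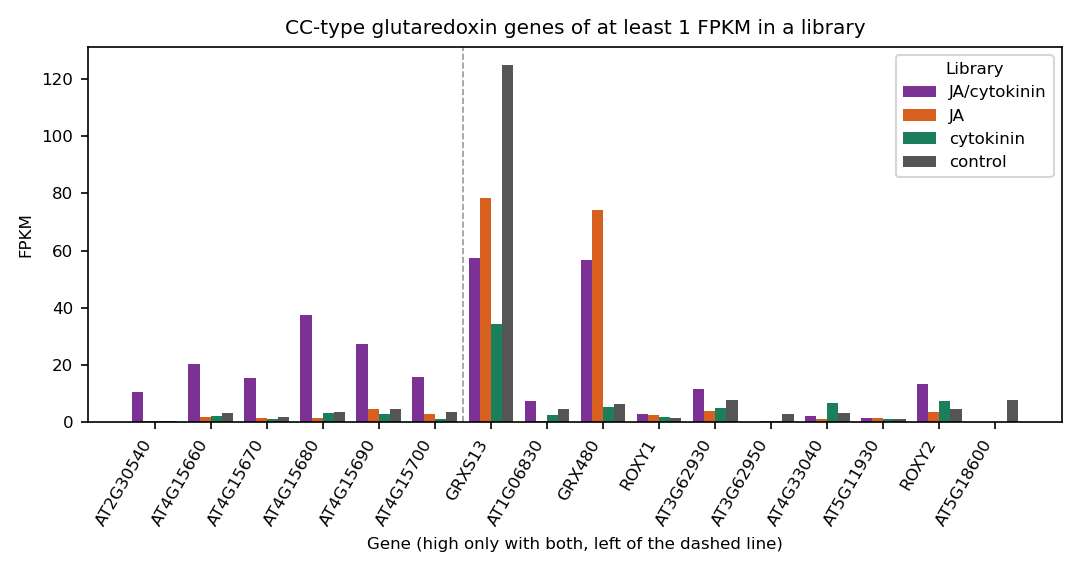
FPKM in each library of the 16 CC-type glutaredoxin genes with at least 1 FPKM in a library, as bars from left to right for JA/cytokinin, JA, cytokinin and control. The 6 genes left of the dashed line are high in the JA/cytokinin bar only, at 10.6 to 37.4 FPKM, whereas GRX480 is high with JA and with JA/cytokinin and GRXS13 is highest in the control.

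The promoters of these 6 genes are shown because genes of a row that vary together can share upstream letters as well as coding ones. The windows hold the 250 bases before the annotated start, 5′ to 3′, from the RefSeq TAIR10.1 genome. Capitals mark TTAGCTGCAAG, the longest run common to the 5 promoters of the row, and TATAAA where it stands on the gene's own strand.
AT4G15660, chr4:8925321-8925570, plus strand: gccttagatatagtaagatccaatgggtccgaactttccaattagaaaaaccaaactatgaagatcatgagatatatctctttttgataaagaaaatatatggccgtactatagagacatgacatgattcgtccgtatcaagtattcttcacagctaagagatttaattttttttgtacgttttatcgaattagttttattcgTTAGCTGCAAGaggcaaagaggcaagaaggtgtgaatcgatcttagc
AT4G15670, chr4:8928781-8929030, plus strand: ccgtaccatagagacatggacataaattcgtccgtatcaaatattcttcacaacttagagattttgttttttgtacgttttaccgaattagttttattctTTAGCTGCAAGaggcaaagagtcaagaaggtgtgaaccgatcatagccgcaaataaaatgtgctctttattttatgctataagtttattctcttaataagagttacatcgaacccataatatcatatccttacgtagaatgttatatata
AT4G15680, chr4:8931367-8931616, plus strand: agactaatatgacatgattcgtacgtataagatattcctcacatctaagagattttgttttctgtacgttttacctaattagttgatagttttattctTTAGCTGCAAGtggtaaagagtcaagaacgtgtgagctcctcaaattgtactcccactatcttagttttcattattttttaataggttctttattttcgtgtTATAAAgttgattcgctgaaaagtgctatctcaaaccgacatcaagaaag
AT4G15690, chr4:8934046-8934295, plus strand: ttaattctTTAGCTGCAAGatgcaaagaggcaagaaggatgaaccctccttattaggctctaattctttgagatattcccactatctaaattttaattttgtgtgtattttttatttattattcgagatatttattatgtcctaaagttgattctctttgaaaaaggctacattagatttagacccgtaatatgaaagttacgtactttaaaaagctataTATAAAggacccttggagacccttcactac
AT4G15700, chr4:8937108-8937357, plus strand: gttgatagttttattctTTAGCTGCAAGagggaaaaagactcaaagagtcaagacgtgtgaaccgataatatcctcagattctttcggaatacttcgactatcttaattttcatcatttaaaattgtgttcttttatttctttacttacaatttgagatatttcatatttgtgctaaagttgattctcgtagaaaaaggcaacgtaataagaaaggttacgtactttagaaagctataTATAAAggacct
AT2G30540, chr2:13012044-13012293, minus strand: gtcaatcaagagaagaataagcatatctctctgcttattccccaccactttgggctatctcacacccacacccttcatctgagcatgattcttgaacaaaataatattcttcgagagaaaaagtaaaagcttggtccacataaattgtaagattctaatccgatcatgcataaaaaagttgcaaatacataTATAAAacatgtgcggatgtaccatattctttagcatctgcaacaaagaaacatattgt

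The run of 11 letters begins 47 bases before the start of AT4G15660, 150 bases before that of AT4G15670, 152 bases before that of AT4G15680, 242 bases before that of AT4G15690 and 233 bases before that of AT4G15700. It is absent from the AT2G30540 window. On either strand it is found in 6 of 26684 promoter windows of this length (0.0225%), of which 5 are the row itself. As it was picked from these 5 sequences, whose genes are near-identical copies, this share describes the row and tests nothing.

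The most abundant genes included several of defence and storage. AT4G22230, a defensin-like gene, had 372 FPKM with JA/cytokinin (95% interval 360 to 384), 84.3 FPKM with JA, 66.8 FPKM with cytokinin and 51.0 FPKM in the control. VSP1, the vegetative storage protein 1 gene and a classic JA response gene, had 273 FPKM with JA/cytokinin (269 to 278), 26.2 FPKM with JA, 40.8 FPKM with cytokinin and 10.99 FPKM in the control. VSP1 thus stood 10.4 times above JA alone, 6.68 times above cytokinin alone and 24.7 times above the control, and each hormone alone also put it above the control. Its relative VSP2 did not meet the rule, because it was also high with JA alone, with 214 FPKM with JA/cytokinin, 97.6 FPKM with JA, 2.54 FPKM with cytokinin and 0.669 FPKM in the control. AT1G71695, a class III peroxidase gene, had 267 FPKM with JA/cytokinin (263 to 271), 78.7 FPKM with JA, 11.1 FPKM with cytokinin and 29.1 FPKM in the control. This peroxidase gene was above the control with JA alone and below it with cytokinin alone, and the level with both exceeded that with JA by 3.39 times. PDF1.5, a plant defensin gene, was the member nearest to the fold limit, with 5.98 FPKM with JA/cytokinin, 1.502 FPKM with JA, 0.816 FPKM with cytokinin and 1.92 FPKM in the control.

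SSL1, which encodes a strictosidine synthase-like protein, had 133 FPKM with JA/cytokinin, 31.2 FPKM with JA, 37.7 FPKM with cytokinin and 11.3 FPKM in the control. KIN1, a gene induced by cold and abscisic acid, had 88.02 FPKM with JA/cytokinin, 19.4 FPKM with JA, 13.4 FPKM with cytokinin and 10.8 FPKM in the control. In both genes the hormones alone lay above the control and well below the joint treatment. KIN2, the neighbour of KIN1 with 95.02% identical coding bases, was also highest with both hormones, at 1075 FPKM with JA/cytokinin, 580 FPKM with JA, 343 FPKM with cytokinin and 265 FPKM in the control. The longest run that KIN1 and KIN2 transcripts share is 58 bases, under the read length. KIN1 was the sole member of the abscisic acid and drought list, in which 4 of 10 genes with at least 1 FPKM in a library were 2-fold or more above the control with JA/cytokinin (9.81% of all genes) and 4 were 2-fold or more below it (10.9%). By the rule KIN1 is among the higher genes.

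Other abundant genes are known mainly by their annotation. AT1G80120, annotated as LURP-one-like, had 79.2 FPKM with JA/cytokinin, 20.7 FPKM with JA, 21.0 FPKM with cytokinin and 10.5 FPKM in the control. AT5G54130, annotated as a calcium-binding endonuclease, exonuclease and phosphatase family gene, had 65.1 FPKM with JA/cytokinin, 19.5 FPKM with JA, 16.6 FPKM with cytokinin and 6.87 FPKM in the control. AT1G03820, annotated as E6-like, had 57.4 FPKM with JA/cytokinin, 13.9 FPKM with JA, 16.3 FPKM with cytokinin and 7.55 FPKM in the control. In all of these each hormone alone lay above the control, with no large gap between JA and cytokinin. AT5G42146, uncharacterized, had 51.9 FPKM with JA/cytokinin, 14.5 FPKM with JA, 12.3 FPKM with cytokinin and 7.59 FPKM in the control, in the same order as AT5G54130.

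Several genes of growth and signalling followed. GASA5, which encodes a small cysteine-rich peptide of the gibberellin-regulated family, had 124 FPKM with JA/cytokinin (120 to 128), 3.44 FPKM with JA, 24.5 FPKM with cytokinin and 5.95 FPKM in the control. GASA5 was below the control with JA alone, whereas with JA/cytokinin it was 5.05 times above cytokinin alone. It was the sole member of 15 GASA genes, and of the 8 with at least 1 FPKM in a library, 5 were at least 2-fold lower with JA/cytokinin than in the control (10.9% of all genes). TPPJ, a trehalose 6-phosphate phosphatase gene, had 54.5 FPKM with JA/cytokinin, 8.43 FPKM with JA, 13.5 FPKM with cytokinin and 4.18 FPKM in the control. PUP19, of the purine permease family whose members carry purines and in some cases cytokinins, had 14.4 FPKM with JA/cytokinin (13.5 to 15.4), 1.59 FPKM with JA, 0.280 FPKM with cytokinin and 0.519 FPKM in the control. Unlike TPPJ, PUP19 was below the control with cytokinin alone, while both were above it with JA alone. YUC5, a flavin monooxygenase gene of auxin synthesis, had 12.2 FPKM with JA/cytokinin, 3.54 FPKM with JA, 3.36 FPKM with cytokinin and 1.23 FPKM in the control.

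Some genes with regulatory roles were of lower level. FAF1, which acts on shoot meristem size, had 16.5 FPKM with JA/cytokinin, 3.93 FPKM with JA, 4.31 FPKM with cytokinin and 5.09 FPKM in the control, and the 3 low libraries were close together. WVD2, a microtubule-associated protein of helical growth, had 13.3 FPKM with JA/cytokinin, 2.79 FPKM with JA, 2.22 FPKM with cytokinin and 1.85 FPKM in the control. LHL3 (AT1G64625), a relative of the vascular regulator LONESOME HIGHWAY, had 6.55 FPKM with JA/cytokinin, 0.581 FPKM with JA, 1.72 FPKM with cytokinin and 0.542 FPKM in the control. LHL3 was at least 2-fold above the control with cytokinin alone, and with JA alone it was close to the control. HSFB3, a heat shock factor, had 9.76 FPKM with JA/cytokinin, 2.61 FPKM with JA, 2.35 FPKM with cytokinin and 0.852 FPKM in the control. HSP17.6II, a small heat shock protein of class II, had 9.54 FPKM with JA/cytokinin, 0.468 FPKM with JA, 1.80 FPKM with cytokinin and 1.11 FPKM in the control. HSP17.6II was below the control with JA alone and above cytokinin alone with JA/cytokinin. Of the 8 heat shock genes with at least 1 FPKM in a library, HSP17.6II was the sole member, 4 were at least 2-fold higher with JA/cytokinin than in the control (9.81% of all genes) and 1 was lower. Against cytokinin 3 of the 8 were higher and 3 lower (8.75% and 6.23%), and with cytokinin alone 4 were at least 2-fold above the control (3.88%). Where JA/cytokinin was compared, HSP17.6II is by the rule among the higher genes.

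Among the genes with the largest ratios were several of low level. AT4G14060, of the polyketide cyclase and lipid transport superfamily, had the largest ratio to the highest other library, 16.0, at 8.42 FPKM with JA/cytokinin (7.46 to 9.46), 0.124 FPKM with JA, 0.433 FPKM with cytokinin and 0.304 FPKM in the control. AT2G01610, annotated in the plant invertase and pectin methylesterase inhibitor superfamily, had 5.75 FPKM with JA/cytokinin, 0.539 FPKM with JA, 0.416 FPKM with cytokinin and 0.507 FPKM in the control. Both genes were low in all 3 other libraries. AT2G27535, annotated in the ribosomal protein L10A family, had 53.2 FPKM with JA/cytokinin (50.1 to 56.3), 1.53 FPKM with JA, 6.10 FPKM with cytokinin and 0.924 FPKM in the control. AT2G27535 was above the control with cytokinin alone, and with JA/cytokinin it was 8.60 times higher still. AT2G18590, a transporter of the major facilitator superfamily, had 5.76 FPKM with JA/cytokinin, 0.0323 FPKM with JA, 1.28 FPKM with cytokinin and 0.271 FPKM in the control, and the JA value rests on an estimated 1.99 fragments (0.00388 to 0.117 FPKM).

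Genes of the low-oxygen response, with 2 of 12 as members beside 0.209% of all genes, formed the best represented of the 15 pathway lists. In Arabidopsis this response is driven by ERF-VII transcription factors, which the plant cysteine oxidases mark for breakdown when oxygen is present. Of the 12 genes on the list, LBD41 and PCO1 (AT5G15120) were high only with both hormones. LBD41, a LOB-domain gene of the core hypoxia set, had 11.3 FPKM with JA/cytokinin (10.5 to 12.1), 3.50 FPKM with JA, 3.57 FPKM with cytokinin and 1.79 FPKM in the control. PCO1, plant cysteine oxidase 1, had 7.62 FPKM with JA/cytokinin (6.96 to 8.32), 1.27 FPKM with JA, 1.65 FPKM with cytokinin and 0.752 FPKM in the control. In both, each hormone alone put the gene above the control. AT5G39890 (PCO2) showed the same order at a level under the 5 FPKM limit, with 2.90 FPKM with JA/cytokinin, 0.469 FPKM with JA, 0.838 FPKM with cytokinin and 0.410 FPKM in the control. ADH1, the alcohol dehydrogenase of fermentation, had 5.005 FPKM with JA/cytokinin, 2.098 FPKM with JA, 1.51 FPKM with cytokinin and 0.886 FPKM in the control, which was under 3-fold above JA. The list was not uniform, as PDC2, a pyruvate decarboxylase gene, had 21.3 FPKM with JA/cytokinin, 36.5 FPKM with JA, 13.2 FPKM with cytokinin and 43.3 FPKM in the control.

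Over the 12 genes, 8 were at least 2-fold higher with JA/cytokinin than in the control and 1 lower (9.81% and 10.9% of all genes), and the median log2 ratio was 1.67, beside 0.033 over all genes. Against JA, 9 of 12 were at least 2-fold higher (6.58%) with a median log2 ratio of 1.304, and against cytokinin 5 of 12 were higher and 1 lower (8.75% and 6.23%) with a median of 0.70. LBD41 and PCO1 are by the rule among the higher genes in each of these comparisons, and they enter the medians. With JA alone, 1 of 12 was at least 2-fold above the control and 2 below it (8.45% and 9.77% of all genes), and with cytokinin alone 4 were above and 1 below (3.88% and 9%). A wider set of 22 low-oxygen loci, written after values were seen, held AT4G10270 and AT4G33560 as its members and had 6 genes 2-fold or more above the control with JA/cytokinin and 6 as far below it, among 20 with at least 1 FPKM in a library. The wider set thus had as many genes higher as lower, unlike the shorter list. Its higher genes include AT4G10270 and AT4G33560 by the rule.

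AT4G33560 and AT4G10270 belong to the wound-induced protein family, small proteins of which 6 are annotated. AT4G33560 had 24.3 FPKM with JA/cytokinin (22.6 to 26.1), 1.55 FPKM with JA, 6.17 FPKM with cytokinin and 3.04 FPKM in the control. AT4G10270 had 8.10 FPKM with JA/cytokinin, 1.41 FPKM with JA, 1.98 FPKM with cytokinin and 0.710 FPKM in the control. JA alone was below the control for AT4G33560 and above it for AT4G10270. AT4G10270 overlaps other annotated loci, and since the sources used here do not say whether strand was used in counting, its reads cannot be told apart from theirs. The more abundant AT4G05070 of the same family had 46.4 FPKM with JA/cytokinin, 161 FPKM with JA, 46.5 FPKM with cytokinin and 151 FPKM in the control, so the family had no common pattern.

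**Figure D4:**
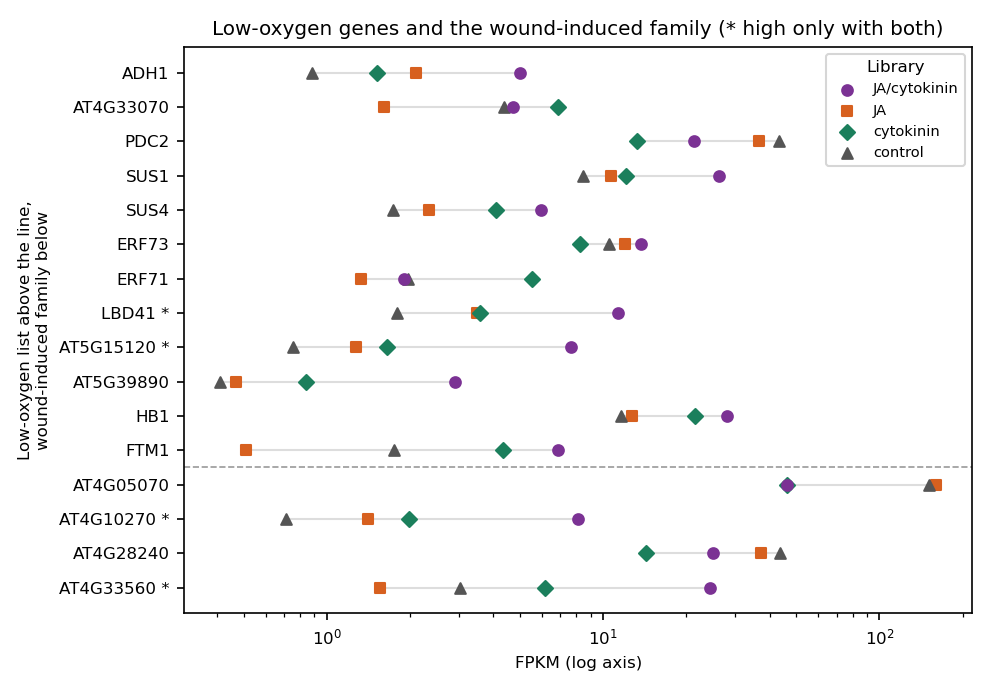
FPKM on a log axis of the 12 low-oxygen genes (above the dashed line) and of the 4 genes of the wound-induced family with at least 1 FPKM in a library (below it), with 1 symbol per library. LBD41, AT5G15120, AT4G10270 and AT4G33560, marked with an asterisk, were high only with both hormones, whereas PDC2, AT4G05070 and AT4G28240 were highest in JA or control roots.

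A second pair of relatives were AT1G14630 and AT2G01990, both annotated as XRI1-like after a gene needed for DNA repair and meiosis. AT1G14630 had 20.5 FPKM with JA/cytokinin, 4.37 FPKM with JA, 5.83 FPKM with cytokinin and 2.01 FPKM in the control. AT2G01990 had 16.8 FPKM with JA/cytokinin, 4.55 FPKM with JA, 3.94 FPKM with cytokinin and 4.66 FPKM in the control. Each hormone alone put AT1G14630 above the control but left AT2G01990 close to it. Their coding sequences were identical at 59.6% of aligned bases. No gene of the DNA damage list was a member, beside 0.209% of all genes. With JA/cytokinin none of the list's 9 genes with at least 1 FPKM in a library was 2-fold above the control (9.81% of all genes).

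None of the 18 genes of JA repression and synthesis, of the 15 type-A response regulators and cytokinin oxidases, or of the lists for ERF-branch, salicylic acid and camalexin defence, detoxification, senescence, wounding and regeneration, ethylene synthesis, iron deficiency or seed storage was high only with both hormones. Only 0.209% of all genes met the rule, so the absence of members from a short list says little about that list. For the JA list the absence also follows largely from the rule, which left out genes at 3 times the control or more with JA alone. VSP1, although a JA response gene, was not on that list. Of the 18 genes on the JA list, 15 stood 2-fold or more above the control with JA/cytokinin (9.81% of all genes). The 2 genes as far below it (10.9%) were LOX2 and AOC1. LOX2 had 0.0446 FPKM with JA/cytokinin, 11.9 FPKM with JA, 0 FPKM with cytokinin and 0.444 FPKM in the control. AOC1 had 0.569 FPKM with JA/cytokinin, 10.0 FPKM with JA, 0.105 FPKM with cytokinin and 2.30 FPKM in the control. Against JA, 0 of 18 stood 2-fold or more above (6.58%) and 6 as far below (8.55%), with a median log2 ratio to JA of -0.73. The cytokinin list was at least 2-fold higher with JA/cytokinin than with JA for 12 of 14 genes (6.58% of all genes). Against cytokinin 1 of 14 was higher (8.75%) and 1 was lower (6.23%), with a median log2 ratio to cytokinin of 0.16.

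By annotated product the genes were a mixed set. Of the 51 protein-coding genes, 2 (3.92%) were defensins or defensin-like, beside 0.0954% of the 14674 protein-coding genes of at least 5 FPKM with JA/cytokinin. A product naming a transcription factor or DNA binding was given for 1 of 51 (1.961%), beside 4.90%. This match reads product wording only, in members and background alike, so it does not count transcription factors as such. LBD41 and LHL3, for example, were not among its hits. They lay on all 5 chromosomes, with 14 on chromosome 1, 10 on chromosome 2, 3 on chromosome 3, 11 on chromosome 4 and 13 on chromosome 5. Chromosome 3 held 5.88% of them, beside 20.2% of the expressed protein-coding genes, and chromosome 4 held 21.6%, beside 15.1%, the row of 5 glutaredoxins included.

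The promoters of the 48 genes, taken from 250 bases before to 50 bases after the annotated start, were searched on both strands for 10 short motifs, and each share is given beside that of all 26684 protein-coding promoters. The G-box CACGTG, which MYC-type factors can bind, was in 4 of 48 (8.33% beside 7.78%), and its variant CACATG in 9 (18.8% beside 13.0%). The type-B response regulator motif AGATNCG was in 2 of 48 (4.17% beside 7.70%). The core TGACG of TGA-type sites was in 4 (8.33% beside 23.1%), the W-box core TTGAC in 22 (45.8% beside 50.5%) and the GCC box GCCGCC in 2 (4.17% beside 2.55%). TATAAA was in 26 (54.2% beside 52.6%), GAANNTTC in 6 (12.5% beside 11.5%, but 3 or 6.25% beside 9.47% in the 250 bases before the start alone), CCGAC in 3 (6.25% beside 14.98%) and AAACCCTA in none (beside 6.16%). TTGAC and TGACG overlap in the letters TTGACG, so their hits are not independent. A match is only a run of letters and was not tested as a binding site.

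The 5 microRNA precursors, 6 snoRNAs and 2 rRNA loci are given apart. PolyA-selected RNA gives reads of precursor loci, not mature microRNAs, so the mature sequences are shown only to say which microRNAs the loci encode. MIR169k and MIR169m, close together on chromosome 3, whose mature microRNA is known to target NF-YA transcription factors, encode the same mature sequence and so share their seed. miR399b is known for repressing PHO2 in the phosphate response. The sequences below are read from the RefSeq TAIR10.1 genome by its annotated positions, 5′ to 3′, with the seed (bases 2 to 8) in capitals. All 3 annotated products of MIR829 are given.
miR169k, chr3:9875675-9875695, minus strand: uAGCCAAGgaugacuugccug
miR169m, chr3:9878318-9878338, minus strand: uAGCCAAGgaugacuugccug
miR399b, chr1:23345387-23345407, minus strand: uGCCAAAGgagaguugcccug
miR775, chr1:29422546-29422565, plus strand: uUCGAUGUcuagcagugcca
miR829-5p, chr1:11834153-11834173, minus strand: aCUUUGAAgcuuugauuugaa
miR829-3p.1, chr1:11834094-11834117, minus strand: aGCUCUGAuaccaaaugauggaau
miR829-3p.2, chr1:11834073-11834093, minus strand: cAAAUUAAagcuucaagguag

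MIR169k had 12.1 FPKM with JA/cytokinin, 1.84 FPKM with JA, 2.02 FPKM with cytokinin and 1.63 FPKM in the control. MIR169m had 11.9 FPKM with JA/cytokinin, 3.37 FPKM with JA, 1.64 FPKM with cytokinin and 1.66 FPKM in the control. The locus MIR775 had 31.5 FPKM, MIR829 22.6 FPKM and MIR399b 6.59 FPKM with JA/cytokinin, and all of these were listed at 0 in the other 3 libraries, so no ratio is given. The 2 rRNA loci, AT2G01020 and AT3G41979, each of 164 bases, had nearly the same values, 15994 and 15858 FPKM with JA/cytokinin, 3430 and 3429 FPKM with JA, 1956 and 1954 FPKM with cytokinin and 2514 FPKM for both in the control. Every window of a read's length in these loci also occurs elsewhere in the genome, so they cannot be told apart from other rRNA copies. Among the snoRNAs, U3D had 83.6 FPKM with JA/cytokinin, 24.9 FPKM with JA, 26.5 FPKM with cytokinin and 23.2 FPKM in the control, and U3B had 23.9 FPKM with JA/cytokinin, 7.79 FPKM with JA, 6.37 FPKM with cytokinin and 6.23 FPKM in the control. Of the windows of a read's length in U3D 35.2% also occur elsewhere in the genome, and of those in U3B 15.3%. U3D overlaps AT5G54070 and U3B overlaps AT5G53905, so the values of both may hold reads of other loci. SNOR111 had 86.6 FPKM with JA/cytokinin, 10.4 FPKM with JA, 24.4 FPKM with cytokinin and 6.28 FPKM in the control. The snoRNA loci AT2G35387, AT1G20015 and AT2G20721 had 942, 283 and 244 FPKM with JA/cytokinin and were listed at 0 in the other 3 libraries.

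In all, 12 of the 70 loci were listed at 0 in the JA, cytokinin and control libraries, and the 10 of these with an annotated length were short, with 79 to 295 exon bases. Besides the small RNAs they comprised the protein-coding AT4G23271 (123 FPKM with JA/cytokinin), AT2G31018 (10.4 FPKM) and AT1G52857 (6.23 FPKM), the pseudogene AT2G07807 (19.9 FPKM) and, of the loci without an entry in the TAIR10.1 table, AT4G38052 (19.9 FPKM) and AT4G26005 (7.88 FPKM). AT4G23271 and AT2G31018 overlap other genes, AT4G23270 and AT2G31020. Such on-or-off values were common among short loci in the whole table. Of 91 loci shorter than 260 bases that reached 5 FPKM in a library, 39.6% were listed at 0 in another, beside 0.452% of 16361 longer loci. The short loci are therefore given as listed, with no ratio of their own, although the median log2 ratios over the 57 loci include some of them. What set the values of the short loci was not tested. AT2G07807 and AT4G38052 had the same listed value, 19.9262 FPKM. Where no number of fragments could be estimated, a high listed value may rest on very few fragments. AT1G52857 alone of these was long enough for an interval, with 42.3 estimated fragments with JA/cytokinin (4.50 to 8.41 FPKM) and upper limits of 0.578 FPKM with JA, 0.603 FPKM with cytokinin and 0.607 FPKM in the control. The non-coding RNA AT1G15405 had 147 FPKM with JA/cytokinin, 23.5 FPKM with JA, 14.9 FPKM with cytokinin and 21.4 FPKM in the control, and ATMG01380, the third locus without an entry in that table, had 203 FPKM with JA/cytokinin, 43.7 FPKM with JA, 17.43 FPKM with cytokinin and 35.9 FPKM in the control.

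The same FPKM minimum and 3-fold limit, without the limit on JA, were applied to each library in turn. JA/cytokinin roots had 87 such genes (0.259%), JA roots 185 (0.551%), cytokinin roots 19 (0.0566%) and control roots 241 (0.718%). Protein-coding genes made up 67 of the 87 with JA/cytokinin, 177 of the 185 with JA, 16 of the 19 with cytokinin and 233 of the 241 in the control. Small RNA and rRNA loci numbered 13 with JA/cytokinin, 1 with JA, 2 with cytokinin and 1 in the control.

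**Figure D5:**
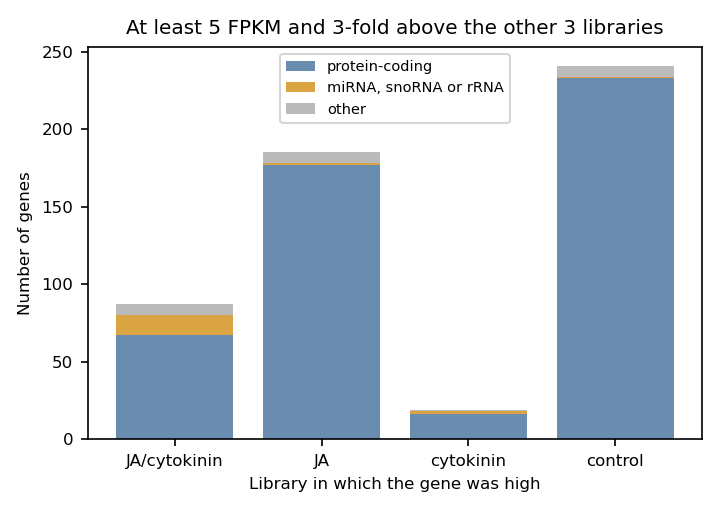
Number of genes with at least 5 FPKM and at least 3 times the level of each of the other 3 libraries, for each library, split by gene type. The counts are 87 for JA/cytokinin, 185 for JA, 19 for cytokinin and 241 for control, and the part that is microRNA, snoRNA or rRNA is 13 in the JA/cytokinin bar.

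The limits left close cases on both sides. Just inside the fold limit were PDF1.5 at 3.01, AT1G48070, a thioredoxin superfamily gene, at 3.08 and LBD41 at 3.11 times the highest other library. Just outside it were the cytochrome P450 gene CYP71A27 at 2.99965, AT5G28145.1 at 2.9955 and the cambium regulator WOX4 at 2.98. CYP71A27 had 114 FPKM with JA/cytokinin, 7.78 FPKM with JA, 38.1 FPKM with cytokinin and 14.9 FPKM in the control. At the limit of 5 FPKM the pseudogene AT2G15120 (5.14 FPKM), AT1G48070 and AT3G61920 (both 5.18 FPKM) were inside, and AT3G15960 (4.91 FPKM), AT4G16240 (4.89 FPKM) and ABCA8 (4.45 FPKM) outside. By the limit on JA alone, HSFB3 (2.85 times the control), AT5G54130 (2.81) and AT1G52700 (2.79) were kept, and GCL1 (3.18), AT2G35612 (3.29) and AT3G27400 (3.31) were left out.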

How the data were processed

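PolyA-selected RNA from Col-0 roots was sequenced from both ends in 4 libraries, 1 per condition. The authors calculated FPKM per TAIR10 gene with Cufflinks and deposited 1 value per gene and library (Bowtie is named in the submitters' processing notes; versions are not given in the sources used here). FPKM is divided by a length taken from the exons and by mapped fragments, so differences in total RNA are not seen. The authors also deposited counts of reads and bases per library, which gave 101 bases per read, and unnamed percent columns that were not used. No per-sample column was left unassigned, and samples were grouped by their labels.

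Ratios are on the scale of FPKM plus 0.1. Fragments were estimated from the FPKM step of 1 fragment in 24558 genes with 1 transcript of at least 400 exon bases, with a fragment length of 160 and a mapped share of read pairs of 87.4% with JA/cytokinin, 91.0% with JA, 91.9% with cytokinin and 91.0% in the control. At this depth 3 fragments on 1 kb of exon correspond to 0.0709 to 0.0793 FPKM. Exact Poisson intervals at the 95% level were computed for loci whose exons exceed the fragment length by at least 100 bases. They cover counting error only, as amplified copies of a molecule are not independent. No gene was tested, because no condition was replicated.

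The genes and lists were chosen with earlier results of these data known. Lists were 15 pathway and 4 marker lists (16 of 236 symbols without a unique match) and 11 families added after values were seen. The text names the 15 genes with the highest FPKM with JA/cytokinin and the 15 with the largest ratio to the highest other library, members on a list, neighbouring members, 3 genes on either side of each limit, and the small RNA and rRNA loci. All others named were chosen after their values were seen. Positions, promoters and mature microRNAs come from RefSeq TAIR10.1, whose table held 28907 of 33565 loci. Alternatives were other pseudocounts, fold and FPKM limits, 3 rescalings (by the median ratio, by a mean of log ratios with 30% of ratios and 5% of levels trimmed on each side, and to a total without small RNA and rRNA) and single-transcript genes. The steps were tested on simulated data. The tools were scipy 1.17.1, pandas 2.3.3, numpy 2.4.6, biopython 1.88 and matplotlib 3.10.9 under Python 3.11.15.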

Additional observations from a re-analysis of the deposited data

Results flagged for a closer look

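In 3 of the protein-coding genes JA had effects of opposite direction, each at least 2-fold, without and with cytokinin. For AT4G15680, the glutaredoxin gene, the log2 ratio was 3.46 for JA/cytokinin to cytokinin and -1.13 for JA to control, a difference of 4.58. For AT2G18590, the transporter gene, the log2 ratios were 2.09 and -1.49, a difference of 3.57, and the JA value rests on an estimated 1.99 fragments. For HSP17.6II, the heat shock protein gene, they were 2.34 and -1.09, a difference of 3.43, with 15.9 estimated fragments with JA. With 1 library per condition these differences were not tested, and a high JA/cytokinin value was required of all these genes. Among all 20442 genes with at least 1 FPKM in a library, 66 showed the same pair of directions and 24 the reverse.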

How the results depend on the processing

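The number of genes moved most with the limits of the rule. It was 162 at 2-fold, 40 at 4-fold and 143 with no minimum FPKM, and under the other alternatives it lay between 51 (at least 10 FPKM) and 102 (at least 1 FPKM). Rescaling by the median ratio kept 66 of the 70 genes among 68, and a trimmed mean of log ratios likewise. A pseudocount of 1 kept 56 among 63. No pseudocount, used only on genes above 0 in all libraries, kept 55 among 59. That filter by itself removes the 12 loci listed at 0 in the JA, cytokinin and control libraries. A minimum of 5 read on FPKM plus 0.1, chosen after seeing the data, gave 71, and loci long enough for an interval, also chosen after, gave 53. With a pseudocount of 1 the median log2 ratios over the 57 loci not annotated as small RNA or rRNA were 2.13 to JA, 1.99 to cytokinin and 2.62 to the control, lower than with 0.1, since a larger pseudocount shrinks the ratios of low genes. The ratios of 22 of the 45 named loci also moved by over 0.25 (log2) with it, but none changed direction. No paired analysis was possible because no condition was replicated, which also left no replicate to omit. Depth limits values under about 0.08 FPKM and loci shorter than 260 bases.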

Other observations

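Some relatives of these genes were also highest with JA/cytokinin without meeting the rule, though the order of their other libraries could differ. YUC9 had 20.004 FPKM with JA/cytokinin, 6.86 FPKM with JA, 6.79 FPKM with cytokinin and 2.66 FPKM in the control. TPPD had 9.24 FPKM with JA/cytokinin, 3.72 FPKM with JA, 3.10 FPKM with cytokinin and 1.69 FPKM in the control, and FAF4 had 12.99 FPKM with JA/cytokinin, 7.16 FPKM with JA, 3.87 FPKM with cytokinin and 0.866 FPKM in the control. Other relatives differed, as FAF3 was highest with cytokinin, at 37.6 FPKM against 14.6 FPKM in the control, and GASA6 was listed under 0.2 FPKM in the 3 hormone libraries and had 66.4 FPKM in the control.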
